A study of Mus musculus with 18 samples.

Results

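In mouse dorsal root axoplasm, RNA that came down with a rabbit IgG isotype control was compared with the RNA of axoplasm without precipitation. All 20924 transcripts with a gene name were taken, of 21207 in the dorsal root table, and they belong to 14779 gene names. The 3 libraries of IgG precipitate and 3 of input are 6 of the 18 libraries of the series. The question is which RNAs the control brings down and which it leaves behind, whatever the tested antibody does.

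All animals were C57B6 mice, with 5 animals pooled in each biological repeat and 3 independent repeats, and no other treatment or allele is given. Axoplasm was obtained by grinding dorsal roots in a transport buffer and cleared by centrifugation. For the IgG libraries, about 200 ug of lysate was mixed with 10 ug of rabbit IgG for 3 h and with protein G beads, blocked with salmon sperm DNA, for 1 h more. The beads were washed with NP40 detergent at 0.1%, 0.5% and 1%. The input libraries hold RNA of the axoplasm without precipitation. A further 3 libraries, precipitated in the same way with a rabbit antibody to Kif5A, a neuronal kinesin heavy chain, are given beside them where it helps. All were made with SMART-Seq v4, which amplifies full-length cDNA from little RNA by PCR.

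An isotype control is an antibody of the same species and class with no known target in the sample. RNA found with it has stuck to beads, tube or antibody, or came with particles that the washes did not remove, and such RNA sets the floor against which a specific precipitate is judged. Axoplasm obtained from nerve roots holds the contents of axons together with those of the Schwann cells, meningeal cells, blood vessels and blood around them.

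Named counts were 13443747, 11584418 and 18314126 in the IgG libraries and 20022870, 18128453 and 16270677 in the inputs. Levels below are CPM of named counts after TMM scaling. Pearson correlations of log2 CPM across the 13371 genes tested were between 0.730 and 0.746 among IgG libraries and between 0.951 and 0.971 among inputs. Library 3 of IgG stood closest to the inputs, at 0.840 to 0.850, against 0.733 to 0.773 for the other IgG libraries. Genes of the labelled tissue were present in input. Pmp22, a myelin protein of Schwann cells, had 445, 357 and 490.3 CPM, the mRNA of Kif5a had 56.8, 50.1 and 53.7 CPM, and 13 of 20 listed sensory neuron genes were measured, with 856, 816 and 847 CPM in sum. Genes of meningeal fibroblasts, with 14481, 15248 and 13134 CPM in sum, and of macrophages, with 3970.2, 4954 and 4451 CPM, were also present in input. In such bulk samples, fewer cells of a type and less RNA per cell cannot be told apart.

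In every IgG library, ribosomal protein mRNAs, and likewise respiratory chain mRNAs, summed to a lower level than in every input, while the nuclear RNA Malat1 and the summed zinc finger mRNAs stood higher. No single gene passed the test, and the IgG libraries differed more from each other than the inputs did. edgeR's quasi-likelihood test with Benjamini-Hochberg adjustment called 0 of 13371 genes (0%) at an adjusted p under 0.05. The smallest adjusted p was 0.0876. At an unadjusted p under 0.05 stood 2466 genes (18.4%), 1282 higher with IgG (9.59%) and 1184 lower (8.85%). All 3 IgG libraries lay above all 3 inputs for 1708 genes (12.8%) and below them for 2264 (16.9%), and 7243 genes (54.2%) had a positive log2 ratio of IgG over input. The median log2 ratio of all genes tested was 0.11. With library size alone in place of TMM it was 0.32, so that ratios are best read against that median. Per transcript the test also called 0 of 17476 (0%), and at an unadjusted p under 0.05 it had 1544 (8.83%) above and 1611 (9.22%) below input.

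This count changed with IgG library 3 and with the method. Without it, edgeR called 973 genes higher with IgG (7.04% of 13816 tested) and 1618 lower (11.7%). Of these 2591 genes, 2414 were also tested with all 6 libraries, where 2346 had the same sign and 1578 had no overlap between groups. DESeq2 on all 6 libraries called 850 genes higher (6.36%) and 759 lower (5.68%), and limma-voom called 0. DESeq2 and the fit without library 3 shared 1188 genes, which is 45.9% of the calls without library 3 and 73.8% of the DESeq2 calls. In the following, genes are therefore given by their value in every library, and counts of list members are read against the shares above.

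Among the most abundant mRNAs, many stood lower with IgG. Input is the denominator of the ratio, so abundance in input and the ratio are not independent. Fth1, the heavy chain of the iron store ferritin (chromosome 19, 9980598 to 9985098), was the most abundant gene of the table, with 50987, 68850.0 and 137548 CPM with IgG, against 225759, 213054 and 155611 CPM in input. Every IgG library lay below every input, and the log2 ratio was -1.21 (SE 0.39). Fth1 has many processed pseudogenes, so that its counts are uncertain to that extent. Its mRNA is known for the iron-responsive element of its leader, a hairpin whose loop binds iron regulatory proteins. The element is shown because this mRNA carries the most counts. It stands at bases 87 to 116 of the 929-base transcript of GENCODE M21, on the plus strand of GRCm38 at chr19:9982732-9982761, and capitals mark the loop.
Fth1: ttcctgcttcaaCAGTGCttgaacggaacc

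Several other abundant mRNAs also lay below input. Actb, which encodes beta actin (chromosome 5, 142903115 to 142906754), had 242, 441 and 1340.2 CPM with IgG, against 3385, 3146 and 2525 CPM in input, a log2 ratio of -2.16 (SE 0.59). Cryab, a small heat shock protein, had 2932, 2912 and 6619 CPM with IgG, against 8755, 9660.5 and 8362 CPM in input. In both genes all IgG libraries lay below all inputs, and IgG library 3 was the highest of the IgG libraries. Stmn1, a microtubule-destabilising protein, had 855, 784 and 1733 CPM with IgG, against 3311, 3179.7 and 2120.1 CPM in input, again without overlap. By contrast Gatm, which makes the creatine precursor guanidinoacetate, overlapped, with 3293, 2828 and 4674 CPM with IgG, against 3079, 3622 and 4500.3 CPM in input. Ogn, an extracellular matrix proteoglycan of fibroblasts, had 8215, 8096 and 5604 CPM with IgG, against 5846, 5076 and 4464 CPM in input, with IgG library 3 under the highest input.

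**Figure D1:**
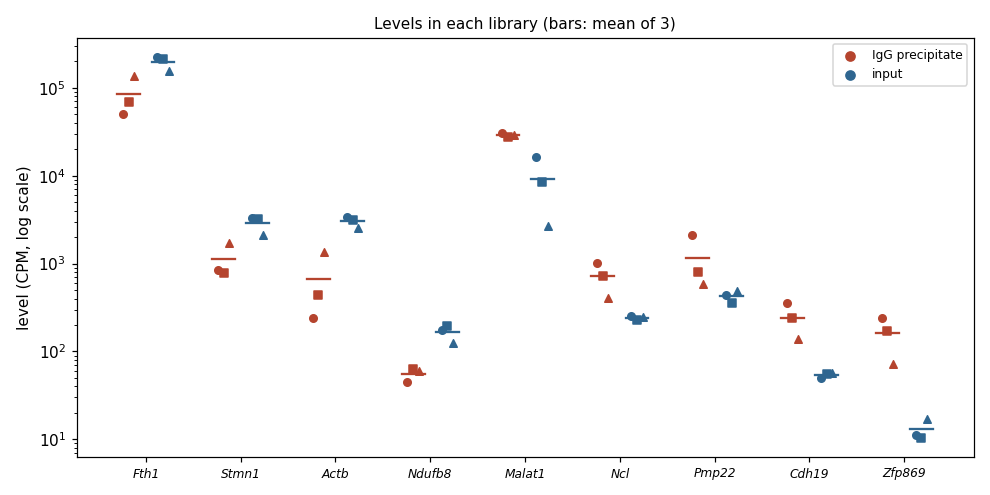
Level of 9 genes in each of the 3 IgG precipitates (red) and 3 inputs (blue) of dorsal root, in CPM on a log scale, with 1 marker shape per library number and bars at the mean of 3. Fth1, Stmn1, Actb and Ndufb8 are lower in every IgG library than in every input, and Malat1, Ncl, Pmp22, Cdh19 and Zfp869 are higher.

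mRNAs of cytosolic ribosomal proteins were a large group below input. Of 82 mRNAs of cytosolic ribosomal proteins, all 3 IgG libraries lay below all 3 inputs for 49 (59.8%, against 16.9% of all genes tested) and above them for 1. The median log2 ratio of the list was -1.10, with 9 of 82 positive, against 0.11 and 54.2% for all genes. None passed the test with all 6 libraries, and 39 stood at an unadjusted p under 0.05 on the lower side. Without IgG library 3, 46 of 82 were called lower and 1 higher. Summed over the list, the level was 5843, 8441 and 18739 CPM with IgG and 7213, 8561 and 18755 CPM with Kif5A, against 25533, 25280.5 and 26153 CPM in input. Without IgG library 3 the median of the list was -1.70. The exact permutation test of these sums, two-sided, gave p = 0.1 for IgG against input, the smallest that 3 against 3 allows.

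Single ribosomal protein mRNAs showed the same order of libraries. Rplp2, of the stalk of the large subunit (chromosome 7, 141447370 to 141451585), had 25.6, 33.5 and 67.97 CPM with IgG, against 151, 126 and 140.2 CPM in input, a log2 ratio of -1.72 (SE 0.40). Rpl41, the shortest ribosomal protein, had 23.1, 26.3 and 37.5 CPM with IgG, against 102, 80.7 and 70.6 CPM in input. In both the groups did not overlap. Ribosomal protein genes have many processed pseudogenes, so that any 1 of these values is uncertain.

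Ribosomal protein mRNAs are known for a pyrimidine-rich 5′ end, the TOP motif, through which their translation is controlled. The windows below run from 15 bases before to 15 bases after the annotated start in the RefSeq promoter table of GRCm38, and show the 6 genes with the smallest p among those of the list with a match. Capitals mark the letters searched, which were CTTTC, also CTTTT, and also CTCTT, with overlaps allowed.
Rplp2: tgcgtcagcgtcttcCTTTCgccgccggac
Rps15a: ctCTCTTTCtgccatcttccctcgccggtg
Rpl22l1: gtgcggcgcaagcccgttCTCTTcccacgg
Rps12: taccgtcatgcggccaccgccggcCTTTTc
Rps26: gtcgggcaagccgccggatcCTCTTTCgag
Rpl34: ccttcCTTTTcCTCTTccggggacggtgct
They lie at chr7:141447636-141447665 (plus strand), chr7:118116133-118116162 (minus), chr3:28805493-28805522 (plus), chr10:23787195-23787224 (minus), chr10:128626492-128626521 (minus) and chr3:130730323-130730352 (minus). Of 82 genes, 60 matched the promoter table, and 25 of them (41.7%) held at least 1 of the 3 motifs on the sense strand and 3 (5.00%) on the opposite strand. Over all 27025 promoters of the table the shares were 11.5% and 11.4%, and over the 9439 genes tested with a promoter 10.4% and 8.61%. Respiratory chain genes, which had a similar ratio of IgG over input, held a motif in 7 of 65 windows (10.8%) on either strand. The annotated start is in the middle of each window, and the capitals begin there in Rplp2. In Rps15a they lie before the start, in Rpl34 mostly before it, and in Rpl22l1, Rps12 and Rps26 after it. A match is thus a description of letters anywhere in this window, and does not show a TOP motif at the 5′ end.

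mRNAs of the mitochondrial respiratory chain and ATP synthase, encoded in the nucleus, stood below input to a similar extent. Of 80 tested, 47 (58.8%) had all IgG libraries below all inputs and 2 above, 18 had a positive ratio, and the median was -1.06. Summed levels were 6202, 6774 and 15141 CPM in IgG libraries and 6789.9, 8365 and 17639 CPM in Kif5A libraries, against 20348, 22398 and 20009 CPM in input. For the sums of IgG and input the exact permutation p was 0.1, the smallest possible. Ndufb8, a subunit of complex I (chromosome 19, 44548572 to 44555440), had 45.3, 63.3 and 59.8 CPM with IgG, against 177, 196 and 126 CPM in input, a log2 ratio of -1.57 (SE 0.28). Ndufa11 and Ndufc2, of the same complex, had ratios of -1.73 and -1.53, again without overlap. None of the 80 was called with 6 libraries, and 45 were called lower and 2 higher without IgG library 3.

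Mitochondrial ribosomal proteins stood between this group and all genes. Their median was -0.50, with 23 of 75 positive and 26 of 75 (34.7%) below input in every library. Mrpl42 had 491, 568 and 936 CPM with IgG, against 2118, 2628 and 1204 CPM in input, a log2 ratio of -1.58. Small abundant proteins, a list of thymosins, metallothioneins, ferritins, S100 proteins and secreted factors, had a median of -0.97, with 5 of 23 positive and 8 below input without overlap. S100a10, a partner of annexin A2, had 98.9, 175 and 308 CPM with IgG, against 538, 549.6 and 445 CPM in input. B2m, the light chain of class I MHC, had 1869.8, 1618 and 2335 CPM with IgG, against 3151, 3253 and 3141 CPM in input.

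Not all housekeeping mRNAs were lower. Translation factors had a median of 0.15, with 36 of 60 positive. Without overlap, 8 lay above input (13.3%, near the 12.8% of all genes) and 5 below (8.33%, against 16.9%). The sum of the translation factors, however, lay below every input. It was 10219, 12451 and 15512 CPM with IgG, against 16901.5, 18306 and 16416 CPM in input. Within that list Eif1, a short mRNA of start codon selection, had 2155, 2686 and 4613 CPM with IgG, against 7713, 8222 and 5941 CPM in input. Eif5b, a long mRNA of subunit joining, had 564, 489 and 303 CPM with IgG, against 200.1, 195 and 116 CPM in input. Proteasome subunits had a median of -0.14, with 18 of 37 positive, and it changed sign with library size alone. Psmb3, of the proteasome core, had 84.4, 51.9 and 137 CPM with IgG, against 182, 211 and 244 CPM in input. Cytosolic chaperones had 8 of 21 positive, a median of -0.20, 3 above and 7 below input. Their sum was 4716, 4875 and 9114 CPM with IgG, against 10871, 11932 and 10992 CPM in input. Without Cryab, a choice made after seeing the data, it was 1784, 1963 and 2495 CPM with IgG, against 2116, 2271 and 2629 CPM in input, with overlap. Splicing proteins were split as well. Snrpg, a small Sm core protein, had 31.1, 30.03 and 72.1 CPM with IgG, against 172, 150.0 and 122 CPM in input. Rbm25, a splicing regulator, had 207, 199 and 92.1 CPM with IgG, against 68.99, 70.9 and 52.3 CPM in input.

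**Figure D2:**
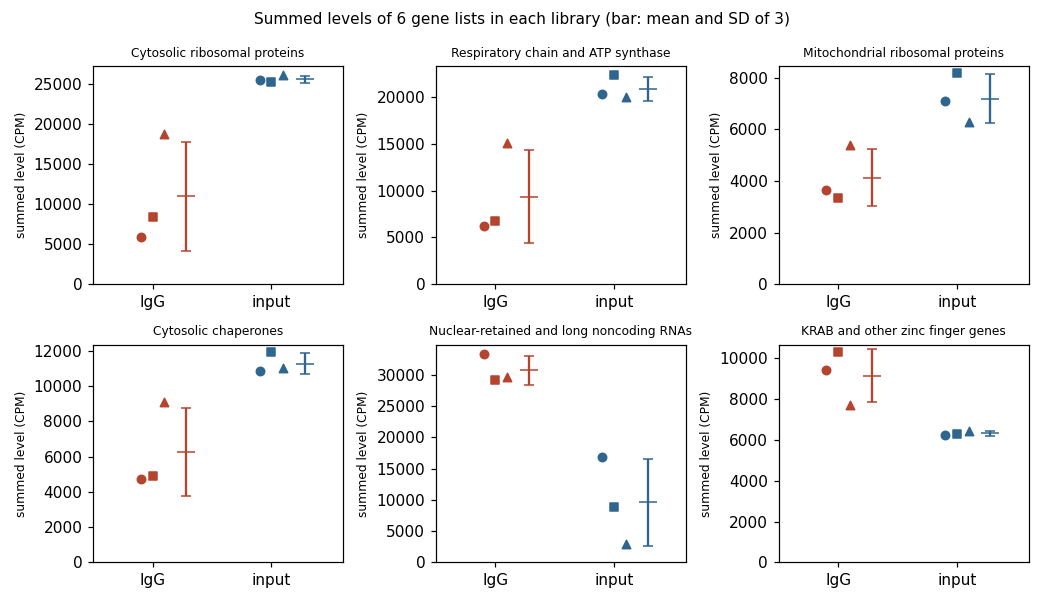
Summed level in CPM of 6 gene lists in each of the 3 IgG precipitates (red) and the 3 inputs (blue) of dorsal root, with 1 point per library and the mean and SD of 3 beside them. Ribosomal protein, respiratory chain and mitochondrial ribosomal protein mRNAs are lower in every IgG library, with IgG library 3 nearest to input. So is the chaperone sum, which is mostly Cryab and overlaps without it. The sums of nuclear-retained and long noncoding RNAs, mostly Malat1, and of zinc finger mRNAs are higher in every IgG library.

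Median ratios rose with transcript length below 1500 nt and changed less above it, while lists still differed at equal length, as given below. Among the 7086 genes with a mean input of at least 10 CPM and a GENCODE M21 length for their most counted transcript, the 111 under 500 nt had a median log2 ratio of -1.46, with 65.8% of them below input in every library. The 578 genes of 500 to 1000 nt had a median of -0.91 (50.0% below) and the 729 of 1000 to 1500 nt one of -0.21 (21.4% below). From 1500 nt upward the medians were between 0.05 and 0.23, and the share below input was between 9.16% and 14.6%. Over all 7100 genes of that level, 16.9% lay below input and the median was 0.03.

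Each IgG library showed this on its own. For genes under 500 nt the median log2 ratio to the mean input, with 0.5 CPM added, was -2.26, -1.86 and -0.83 in the IgG libraries and -2.22, -1.91 and -0.72 in the Kif5A libraries. Single inputs against the mean of the other inputs gave 0.16, 0.14 and -0.40, so that input library 3 also held fewer short transcripts than the other inputs. At 500 to 1000 nt the medians of the IgG libraries were -1.40, -1.24 and -0.39, those of the Kif5A libraries -1.27, -1.08 and -0.19, and single inputs gave 0.01, 0.17 and -0.21.

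**Figure D3:**
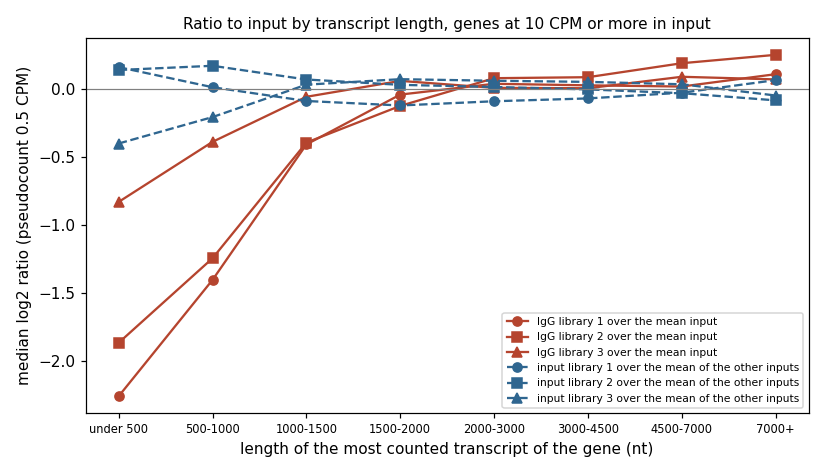
Median log2 ratio to input, with 0.5 CPM added, by length in nt of the gene's most counted transcript, for the 3 IgG libraries over the mean input (red, solid) and each input over the mean of the other inputs (blue, dashed). Genes with a mean input of at least 10 CPM are shown; under 500 nt the IgG libraries are at -2.26, -1.86 and -0.83, and from 2000 nt all 6 lines lie within 0.25 of 0.

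Short transcripts of other genes were lower as well. At 500 to 1000 nt, the 478 genes outside the ribosomal, respiratory chain and zinc finger lists had a median of -0.85, with 46.7% below input. At this length, cytosolic ribosomal proteins had -1.04 (25 of 43 below), mitochondrial ribosomal proteins -1.05 (13 of 20 below) and the respiratory chain -1.53 (27 of 34 below). At 1000 to 1500 nt, 682 other genes had -0.20 (20.1% below), cytosolic ribosomal proteins -1.13 (9 of 13 below), the respiratory chain -0.79 (6 of 11 below) and mitochondrial ribosomal proteins -0.29 (4 of 15 below). The 10 to 50 CPM, 50 to 200 CPM and over 200 CPM genes under 1000 nt had medians of -0.80, -0.97 and -1.27, and those of 2000 nt and over had 0.29, 0.09 and -0.06. Across the 7086 genes Spearman's rho of the log2 ratio was 0.27 with transcript length, 0.28 with the number of exons and -0.07 with GC content, and 0.32 with coding length over 6673 genes. With input level it was -0.21 over 7100 genes. These are correlations across genes of the same 6 libraries, and genes are not independent replicates. Input level is also the denominator of the ratio, so its correlation and the medians by CPM level are coupled to the ratio. Levels are not per length, which leaves ratios of the same gene between libraries unaffected.

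Malat1, a long noncoding RNA kept in nuclear speckles (chromosome 19, 5795690 to 5802672), was the most abundant RNA with a level above input. It had 30506, 27677 and 29159.8 CPM with IgG and 28013, 22467 and 12646 CPM with Kif5A, against 16287, 8482 and 2664 CPM in input, and IgG over input had a log2 ratio of 1.67 (SE 0.57). The 3 IgG libraries were close to each other and above every input, while the inputs were spread widely, with library 3 lowest. Neat1, the RNA of nuclear paraspeckles (chromosome 19, 5824708 to 5845478), had 1440.3, 522 and 46.1 CPM with IgG, against 76.03, 39.5 and 11.5 CPM in input, and its groups overlapped. Snhg11, a host gene of small nucleolar RNAs, had 663, 366 and 115 CPM with IgG, against 143, 78.6 and 45.7 CPM in input, also with overlap.

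Over the list of 13 nuclear-retained and long noncoding RNAs, 10 had a positive ratio, the median was 0.83, and 1 of 13 (7.69%) lay above input in every library, against 12.8% of all genes. Summed levels, mostly Malat1, were 33269.8, 29191 and 29589 CPM with IgG, against 16904, 8889 and 2962 CPM in input. Without Malat1 they were 2764, 1515 and 429.5 CPM with IgG, against 617, 406 and 299 CPM in input, with overlap. Median ratios in single IgG libraries were 1.03, 1.36 and -0.13, so library 3 did not share the sign of the fitted median. Without IgG library 2 the fitted median was 0.35.

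Zinc finger genes, mostly DNA-binding repressors, formed the largest list with positive ratios. Of 267 tested, 183 (68.5%) had a positive ratio, against 54.2% of all genes, and the median was 0.66. All IgG libraries lay above all inputs for 45 (16.9%, against 12.8%) and below for 24 (8.99%, against 16.9%). Without adjustment, 39 had a p under 0.05 on the higher side and 13 on the lower. Summed levels were 9426, 10292 and 7729.6 CPM in IgG libraries and 8591, 9113 and 6071 CPM in Kif5A libraries, against 6217, 6268 and 6459.5 CPM in input. Those of IgG and input did not overlap. Without IgG library 2 the median of the list was 0.39. Medians in single IgG libraries were 0.13, 0.40 and 0.03, under the fitted median, since a fitted ratio compares group means and 1 high IgG library can carry it. Zfp869 (chromosome 8, 69706332 to 69710724) had 241, 171 and 72.7 CPM with IgG, against 11.3, 10.4 and 17.1 CPM in input, a log2 ratio of 3.64 (SE 0.50). Zfp125, a transcribed pseudogene in GENCODE M21, had 37.7, 40.1 and 34.5 CPM with IgG, against 2.84, 3.96 and 3.57 CPM in input. Zfp612 had 50.2, 91.5 and 100.2 CPM with IgG, against 19.5, 16.5 and 16.9 CPM in input. At 2000 to 3000 nt and a mean input of at least 10 CPM, 34 zinc finger genes had a median of 0.83, against 0.13 for 1386 genes outside the lists named above. From 3000 nt the medians were 0.32 for 84 zinc finger genes and 0.16 for 3345 others.

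Genes above input in every IgG library were of varied function. Described here are the 15 with the smallest p at a mean of 10 CPM or more with IgG, leaving aside predicted and clone-named genes (symbols such as those ending in Rik). Prpf39, a U1 snRNP-associated splicing protein (chromosome 12, 65036333 to 65063386), had 60.7, 43.05 and 13.2 CPM with IgG, against 2.24, 1.10 and 2.04 CPM in input. Of its counts, 65.1% were on a transcript annotated as a target of nonsense-mediated decay. Clasrp, a serine and arginine rich splicing regulator (chromosome 7, 19581035 to 19604486), had 135, 73.2 and 55.3 CPM with IgG, against 14.5, 11.2 and 14.98 CPM in input. Srrt, a partner of the nuclear cap-binding complex, had 102, 125 and 106 CPM with IgG, against 35.2, 24.02 and 38.1 CPM in input. All 15 are without overlap because the rule requires it. Supt20, of the SAGA coactivator, had 134, 195 and 133 CPM with IgG, against 39.1, 39.9 and 54.2 CPM in input. Elp3, the catalytic subunit of Elongator, had 242, 184 and 205 CPM with IgG, against 74.2, 67.1 and 86.8 CPM in input. Besides them stood Cyp27a1, a sterol hydroxylase, with 502, 296 and 137 CPM with IgG, against 49.2, 45.2 and 45.3 CPM in input, and Cdh19, a cadherin of the Schwann cell lineage, with 352, 239 and 139.6 CPM with IgG, against 50.00, 55.7 and 56.5 CPM in input. For both, IgG library 3 was the nearest to input. Efemp1, an extracellular matrix fibulin, had 113, 172 and 110.3 CPM with IgG, against 21.6, 30.5 and 28.4 CPM in input. Ap1ar, a regulator of the AP-1 adaptor, was even across libraries, with 186, 191 and 207 CPM with IgG, against 66.6, 78.3 and 63.3 CPM in input. Fbxl6, Dennd1c and Gpr180 had log2 ratios of 2.64, 2.56 and 1.48, and the 3 zinc finger genes above complete the 15.

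Among RNA-binding proteins of transport granules the picture was mixed. Of 33, 23 had a positive ratio, with a median of 0.36. In every library, 4 lay above input (12.1%, near the 12.8% of all genes) and 1 below (3.03%, against 16.9%). Ncl, the gene of nucleolin (chromosome 1, 86344719 to 86359400), stood at 1017, 714 and 410.5 CPM with IgG, against 255, 226 and 246 CPM in input, a log2 ratio of 1.56 (SE 0.34). Its groups did not overlap. Splicing factors had 22 of 31 positive and a median of 0.43, with 4 above and 4 below input (12.9% each). Immediate early genes had 14 of 21 positive and a median of 0.45. They went both ways, with 5 above and 4 below input in every library. Junb and Btg2 are among those above. Junb, a stimulus-induced AP-1 subunit, had 72.9, 41.97 and 31.7 CPM with IgG, against 17.4, 17.3 and 13.6 CPM in input. Btg2, an early-response antiproliferative factor, had 361, 176 and 106 CPM with IgG, against 75.5, 72.2 and 68.9 CPM in input. Large scaffold proteins, whose median transcript length was 11527 nt, had 20 of 27 positive and a median of 0.41. Syne1, a giant protein of the nuclear envelope, had 159, 71.00 and 67.3 CPM with IgG, against 36.6, 26.3 and 25.3 CPM in input.

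The 15 genes below input in every library, chosen by the same rule with a mean of 10 CPM or more in input, held a further set. Cand2, a regulator of cullin ubiquitin ligases (chromosome 6, 115774538 to 115805557), had 0.393, 1.30 and 0.725 CPM with IgG, against 21.2, 24.5 and 16.9 CPM in input. Enc1, an actin-binding kelch protein (chromosome 13, 97241105 to 97253034), had 0, 0.0766 and 0.167 CPM with IgG, against 24.5, 13.05 and 13.8 CPM in input. Efhb, an EF-hand protein (chromosome 17, 53398889 to 53463321), had 0.197, 0.0766 and 0.167 CPM with IgG and 0.165, 0.115 and 0.152 CPM with Kif5A, against 60.6, 40.4 and 9.94 CPM in input. Lcmt2, of tRNA modification, had 0.393, 0.153 and 0.112 CPM with IgG, against 14.7, 15.1 and 6.76 CPM in input. In these 4 genes every IgG library stood far below every input. Others were lower by smaller ratios at higher levels. Dynlrb1, a dynein light chain, had 64.7, 103 and 159 CPM with IgG, against 539, 535 and 272 CPM in input. Vdac2, a channel of the outer mitochondrial membrane, had 171, 125 and 193 CPM with IgG, against 333, 379 and 419 CPM in input. Atp6v0d1, of the vesicular proton pump, had 131, 85.6 and 125 CPM with IgG, against 296, 313 and 384 CPM in input. In these 3 genes the 2 groups stood apart by less than in the 4 above. Vkorc1, the vitamin K epoxide reductase, had 91.6, 122.6 and 159.5 CPM with IgG, against 284, 283 and 305 CPM in input. Dnajc15, a mitochondrial chaperone, had 22.9, 30.9 and 42.04 CPM with IgG, against 128, 142 and 73.5 CPM in input. Its 1 listed transcript is annotated as a target of nonsense-mediated decay, not as protein-coding. Capns1, Emp3, Yif1a, Slc13a4 and Ccpg1os had log2 ratios of -1.70, -1.60, -1.18, -1.08 and -2.58, and Ndufb8 is the last of the 15.

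Genes without any count set IgG apart from input. Of 14779 genes, 14.5%, 12.8% and 10.3% held no count in the IgG libraries and 1.94%, 3.17% and 1.83% in the Kif5A libraries, against 1.07%, 1.12% and 1.31% in the inputs. After every library was thinned to 11584418 counts the means were 13.1% ± 1.81 with IgG and 1.55% ± 0.112 in input (SD, n = 3 each). The exact permutation test of IgG against input, two-sided, gave p = 0.1 with and without thinning, the smallest that 3 against 3 allows. All 3 IgG libraries were at 0 for 547 genes, exactly 2 for 1069 and exactly 1 for 1792, and 29 genes were at 0 in all 3 inputs. Zeros were seen in genes with ample input. At 5 to 10 CPM in input, a median of 117 counts, 236 of 1565 genes had a 0 in at least 1 IgG library, in 202 of them in exactly 1, and none had a 0 in an input. At 10 to 20 CPM it was 63 of 1629 genes. These bins were set by the mean of the same inputs, which makes a 0 in an input less likely than one with IgG.

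The most abundant genes in input without an IgG count were Pcdhb16, Prox1os, Terf2, Nfatc4, Zfp709, Nts, Btbd16 and Smim18, chosen by input level. Pcdhb16, a clustered protocadherin of cell adhesion (chromosome 18, 37477814 to 37483038), had 6.22, 7.62 and 6.06 CPM in input, and IgG was at least 102-fold lower, taking 3 counts over the group as the floor. Terf2, a telomere-binding protein, had 3.71, 3.17 and 4.78 CPM in input and was at least 59.6-fold lower with IgG. Nfatc4, a calcineurin-regulated transcription factor, had 1.58, 5.06 and 4.21 CPM in input (at least 54.4-fold lower). Nts, the neuropeptide neurotensin, had 4.26, 5.00 and 1.02 CPM in input (at least 53.8-fold lower). Such bounds take in counting error alone, because PCR copies are not separate molecules. Of 20 protocadherin cluster genes tested, 8 had a positive ratio and 6 lay below input in every library, against 16.9% of all genes. No IgG count was found for 3 of the 21 measured, against 547 of all 14779 genes. Such zeros depend on input level. All 3 IgG libraries were at 0 for 158 of 1705 genes at 1 to 2 CPM in input. At 5 to 10 CPM, where Pcdhb16 lies, this held for 1 of 1565. Pcdhb10, also without an IgG count, had a mean of 1.23 CPM in input.

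**Figure D4:**
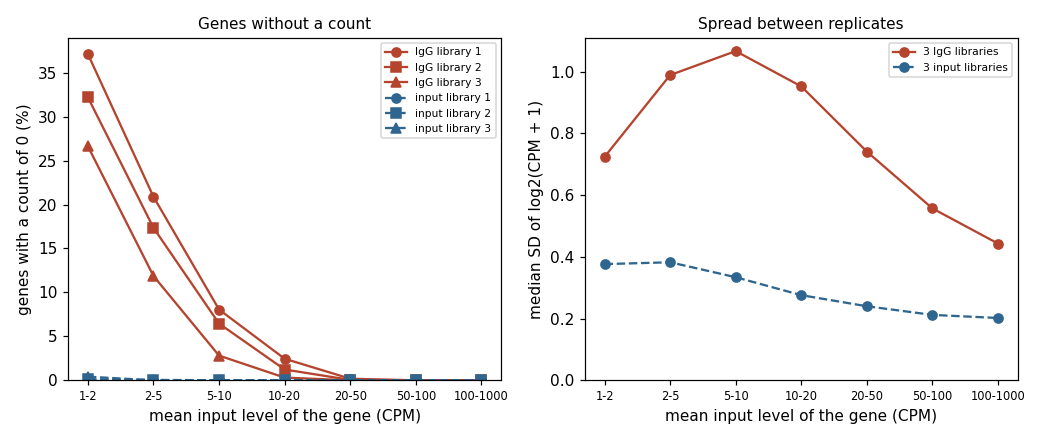
Left, percent of genes with a count of 0 in each of the 3 IgG precipitates (red) and each input (blue), by mean input level in CPM. Right, the median over genes of the SD of log2(CPM + 1) between the 3 libraries of each group. At 5 to 10 CPM, 8.05%, 6.45% and 2.81% of genes are at 0 with IgG and none in input, and the median SD is 1.07 with IgG and 0.33 in input. The bins were set by the inputs themselves, which makes a 0 in input less likely.

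Spread between replicates was larger with IgG at every level of mean input, by which the genes were binned. The median SD of log2(CPM + 1) at 10 to 20 CPM was 0.95 with IgG, 0.45 with Kif5A and 0.28 in input. At 100 to 1000 CPM it was 0.44 with IgG, 0.32 with Kif5A and 0.20 in input. Counts were also less concentrated with IgG. The 10 most abundant genes took 13.4%, 14.7% and 21.1% of counts with IgG, against 27.8%, 25.1% and 21.4% in input, with an exact permutation p of 0.1, the smallest possible. The groups did not overlap, but IgG library 3 and input library 3 were nearly equal.

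Annotated transcript classes were compared with the same test per transcript. Retained-intron transcripts took 2.19%, 1.57% and 0.805% of counts with IgG, against 0.925%, 0.743% and 0.620% in input, which overlap (exact permutation p = 0.2). Of 2150 tested, 1276 (59.3%) had a positive ratio, with a median of 0.45, against 0.08 for 12317 protein-coding transcripts. At a mean input of at least 10 CPM, however, the median of 117 retained-intron transcripts was -0.38. Within 1148 genes with tested transcripts of both kinds, the retained-intron ratio was the higher one in 627 (54.6%). Processed pseudogenes, whose median length was 501 nt, had a median of -0.97, with 41.6% of 358 below input in every library. Reads of a pseudogene and its parent gene may be split by counting, so these values are uncertain.

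Cell type lists differed in the sign of their medians. Myelinating Schwann cell genes had 15 of 20 positive and a median of 0.33. Pmp22, a tetraspan myelin protein, had 2105, 799.9 and 588 CPM with IgG, against 445, 357 and 490.3 CPM in input. Mag, a myelin adhesion protein, had 1256, 788 and 374 CPM with IgG, against 251, 210.2 and 334 CPM in input. Both lay above input without overlap. Of the 20, 5 lay above and 2 below input in every library.

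Genes of nonmyelinating Schwann cells had 6 of 13 positive and a median of -0.009, with 3 above and 2 below input without overlap. With library size alone the median was 0.19. Their sum was 2275, 2183 and 2065 CPM with IgG, against 1486, 1443 and 1664 CPM in input, without overlap, but it rested on 2 members. Without Gfap and Cdh19, a choice made after seeing the data, the sum was 1045, 1045 and 1334 CPM with IgG, against 1071, 1103 and 1186 CPM in input, with overlap. Gfap, an intermediate filament, had 878, 899.5 and 591 CPM with IgG, against 366, 284 and 421 CPM in input. Sox2, a transcription factor, had 11.6, 14.4 and 19.3 CPM with IgG, against 34.4, 35.9 and 26.97 CPM in input, below every input. Oligodendrocyte and astrocyte genes, a list that also holds Gfap, had 13 of 17 positive and a median of 0.30, with 3 above and 2 below input. Their sum was 2908, 3833 and 3094 CPM with IgG, against 2715, 2358 and 2482 CPM in input, and without Mobp, a myelin protein, the sums overlapped. Of the Mobp counts, 95.6% were on a transcript annotated as a target of nonsense-mediated decay. Cldn11, a tight junction protein, had 70.1, 98.3 and 224 CPM with IgG, against 511, 435 and 327 CPM in input, below every input.

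Meningeal and fibroblast genes went both ways, with 12 of 23 positive, a median of 0.08, 4 above and 5 below input without overlap, and sums that overlapped. Without IgG library 2 the median was -0.25. Col1a1, a collagen chain, had 852, 728 and 412 CPM with IgG, against 299, 279 and 307 CPM in input. Gsn, an actin-severing protein, had 2308, 2100.2 and 1435 CPM with IgG, against 638, 811 and 944 CPM in input. Mgp, an inhibitor of calcification, had 159, 265 and 437 CPM with IgG, against 797, 688 and 568 CPM in input, opposite in direction. Sox2, Cldn11 and Mgp were chosen after their values were seen.

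Among blood and muscle genes, skeletal muscle had a median of -1.37, with 6 of 9 below input in every library and sums of 45.3, 52.01 and 101 CPM with IgG, against 184, 142 and 121 CPM. Neutrophil genes had 4 of 13 positive, 3 above and 5 below input, and summed to 916, 1617 and 1427 CPM with IgG, against 2964, 3359.8 and 1961 CPM in input. Without S100a8 the sums overlapped. Within that list S100a8, a short calcium-binding protein mRNA, had 225, 338 and 484 CPM with IgG, against 1036, 1145 and 697 CPM in input. Mmp9, a gelatinase, had 55.2, 91.5 and 40.5 CPM with IgG, against 12.01, 15.7 and 19.1 CPM in input, opposite in direction to S100a8 and likewise without overlap. Receptors for the Fc part of antibodies were measured through their mRNAs. Fcgr1, the high-affinity IgG receptor, had 65.5, 106 and 58.99 CPM with IgG, against 21.6, 31.5 and 28.4 CPM in input. Fcer1g, the shared signalling chain, had 225, 363 and 450.1 CPM with IgG, against 606, 676 and 519.9 CPM in input. The list of 8 tested had a median of -0.01, which changed sign with library size alone. The 10 measured members summed to 715, 909 and 869 CPM with IgG, against 986, 1123 and 971 CPM in input, below every input.

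The axonal cytoskeleton and kinesin-1 lists had medians of opposite sign. The axonal cytoskeleton list had 6 of 24 positive, a median of -0.28, 8 below input (33.3%, against 16.9%) and 1 above. Its sums were 5548, 5001 and 7862 CPM with IgG, against 8786, 8917 and 9879 CPM in input. Tubb4a, a neuronal tubulin, had 164, 186 and 198 CPM with IgG, against 308, 271 and 343 CPM in input. Map1b, a large microtubule-associated protein, had 663, 603 and 398 CPM with IgG, against 262, 232 and 349 CPM in input. The mRNA of Kif5a (chromosome 10, 127225696 to 127263348) was uneven with IgG, at 66.1, 19.7 and 135 CPM, against 56.8, 50.1 and 53.7 CPM in input, and its log2 ratio of 0.46 turned to -0.35 without IgG library 3. Kif5b, the widely expressed paralog, had 621, 595 and 816 CPM with IgG, against 552, 628 and 583 CPM in input. The kinesin-1 list, which holds 3 heavy and 2 light chains here, had 5 of 5 positive and a median of 0.46, which was 0.01 without IgG library 3, and in all 5 the groups overlapped. Of the light chains, Klc1 had 49.3, 15.2 and 10.2 CPM with IgG, against 10.04, 7.80 and 13.3 CPM in input. Klc4 had 124, 21.1 and 41.1 CPM with IgG, against 24.2, 27.2 and 28.1 CPM in input, and IgG library 1 was the highest of the 6 libraries in both. Sensory neuron genes summed to 729, 988 and 934 CPM with IgG, against 856, 816 and 847 CPM in input, with a median ratio of 0.13 over 11 genes that turned sign when single libraries were left out.

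**Figure D5:**
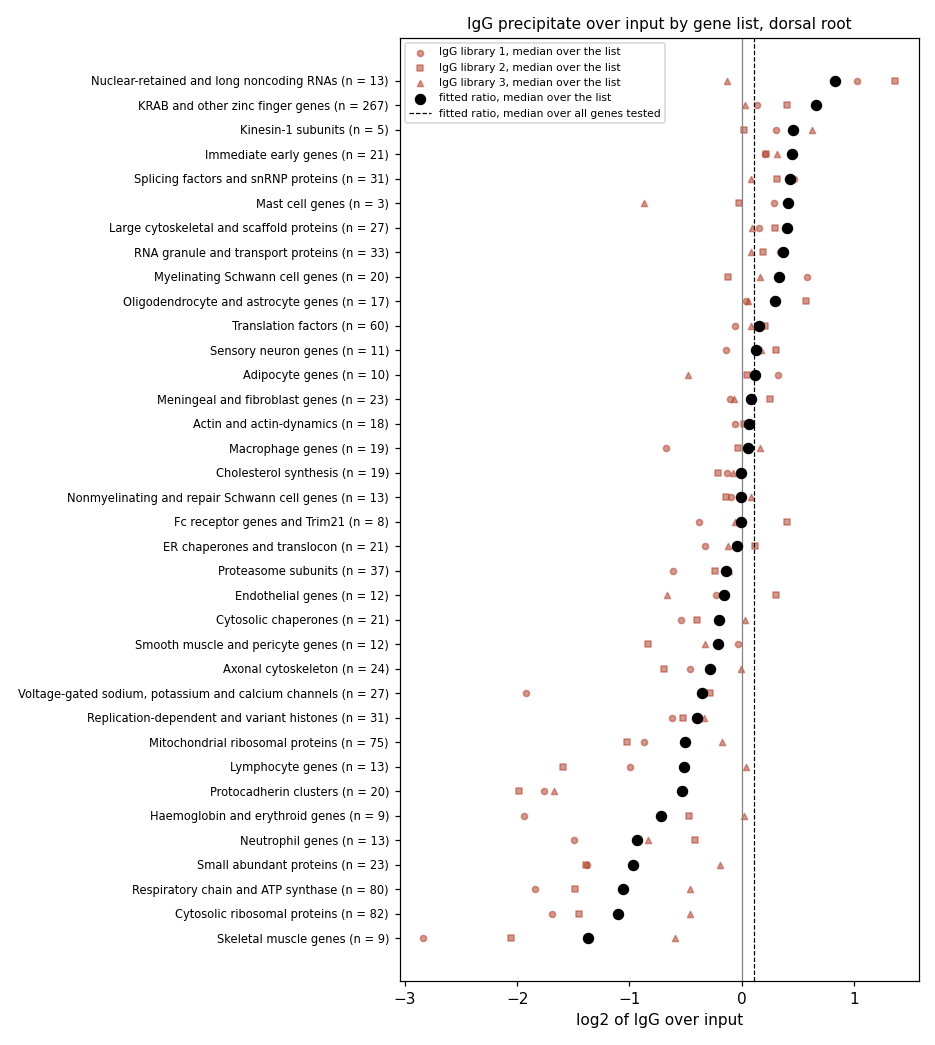
Median log2 ratio of IgG over input for each of 36 gene lists. Black dots are the median of the ratios fitted with edgeR, red markers the list's median in each IgG library over the mean input with 0.5 CPM added, and the dashed line the fitted median of all genes, 0.11. The lowest fitted medians are those of the skeletal muscle, ribosomal protein and respiratory chain lists. The highest is that of nuclear-retained and long noncoding RNAs, with IgG library 3 apart. Protocadherin clusters have a fitted median of -0.53 but stand at -1.76, -1.98 and -1.67 in the single libraries, below the ribosomal protein list in each.

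Sciatic nerve libraries, from the same animals per the submitters' design text, gave a second IgG and input comparison with its own inputs. There edgeR called 8 of 12710 genes (0.0629%), and the difference between the tissues' ratios was called for 9 of 12612 genes (0.0714%), in a fit that did not model shared animals. Cytosolic ribosomal proteins had a median of -0.73, with 8 of 82 positive, the same sign as in dorsal root. The respiratory chain had -0.15 with 29 of 80 positive, and mitochondrial ribosomal proteins had -0.01 with 36 of 75 positive. Nuclear-retained and long noncoding RNAs had 1.35 with 8 of 12 positive, and zinc finger genes 0.11 with 135 of 256 positive. Genes under 500 nt had a median of -0.75 and those of 500 to 1000 nt of -0.39. Across 7010 genes with at least 10 CPM in dorsal root input, Spearman's rho of the log2 ratios of both tissues was 0.41. Of 133 named genes tested in both tissues, 102 had the same sign and 31 the opposite sign, and none was called in sciatic nerve. Of the 15 named genes above input in dorsal root, 13 had the same sign in sciatic nerve, and of the 15 below input 10 did. Most named genes were chosen by their dorsal root values. The share of equal signs over all genes tested in both tissues is not given here. These counts are therefore not read as particular to the named genes. The sciatic log2 ratio was -1.03 for Fth1, -1.20 for Actb and 1.51 for Malat1, with the sign of dorsal root. It was -4.90 for Mmp9, 2.51 for S100a8, 1.18 for Dnajc15, 1.02 for Ndufc2, -0.84 for Pmp22 and -0.78 for Gfap, opposite to dorsal root.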

How the data were processed

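The authors deposited raw read counts per Ensembl transcript, whole numbers, in a table per tissue; the submitters' processing notes name edgeR, mm10 (GRCm38) and CASAVA 1.8.2. Aligner, counter and strand were not given in the sources read, so reads of overlapping or antisense genes cannot be told apart. The 283 transcripts without a gene name (0.197% to 0.237% of counts) were left out, and counts were added up per gene over the transcripts listed, which need not be all of a gene's.

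IgG and input were compared in R 4.3.3 with edgeR 4.0.16 (quasi-likelihood, robust, TMM, default filter by group, 6 libraries, two-sided, Benjamini-Hochberg), and in DESeq2 1.42.0 and limma 3.58.1 as alternatives. The scripts were tested on simulated data. Lengths, classes and positions are from GENCODE M21 (GRCm38), which matched 20783 transcripts. The comparison, the 36 gene lists and the rules for named genes were chosen with earlier results of these data known. The rules took, by smallest p, 15 genes without overlap in each direction at a mean of at least 10 CPM in the higher group, without predicted or clone-named genes, and 3 per list, the 8 most abundant genes without a count in 1 group, and the most abundant genes; some of these are not reported here. Equal replicate numbers were not used to pair libraries. P-values measure the spread between these 3 repeats per group. The precision of a level is limited by counts of 11584418 to 20022870 per library.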

Additional observations from a re-analysis of the deposited data

Results flagged for a closer look

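The difference of the IgG over input ratio between dorsal root and sciatic nerve was tested for 12612 genes in 1 edgeR fit, which called 9 (0.0714%); the 3 named genes among them are given here in CPM of library size alone. Mmp9, a gelatinase, differed by 6.90 (log2, adjusted p = 0.0280). Dorsal root had 62.7, 103 and 39.7 CPM with IgG, against 10.99, 14.2 and 18.4 CPM in input, and sciatic nerve 0.0918, 0.422 and 0.0886 CPM with IgG, against 4.20, 6.45 and 6.81 CPM. Dnajc15, counted on the 1 listed transcript described above, differed by -3.01 (adjusted p = 0.0390) and was lower with IgG in dorsal root. In sciatic nerve it was higher with IgG, with 346, 299.9 and 213 CPM, against 129.9, 135 and 103 CPM in input. Fasn, the fatty acid synthase, differed by -2.37 (adjusted p = 0.0390), with 129, 91.3 and 145 CPM with IgG in dorsal root, against 147, 136 and 196 CPM, and 1551, 1372 and 1312 CPM in sciatic nerve, against 348, 450.4 and 375 CPM. The 10 adipocyte genes had a median ratio of 0.12 in dorsal root and 2.46 in sciatic nerve.

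In 2 lists every IgG library moved from the mean input one way in dorsal root and the other way in sciatic nerve, and these differences were not tested. Mast cell genes differed by 1.59 (log2 of summed levels), with 9.97, 15.5 and 10.9 CPM in dorsal root, against 8.59, 8.55 and 8.11 CPM, and 118, 135 and 186 CPM in sciatic nerve, against 339, 290.3 and 289.6 CPM. Cholesterol synthesis genes differed by 0.576, with 5876, 5391 and 5175 CPM in dorsal root, against 4454, 4374 and 5269 CPM, and 2552, 3100.1 and 4166 CPM in sciatic nerve, against 4190.5, 4009.7 and 4348 CPM. With TMM scaling the mast cell sum of IgG library 1 in dorsal root, 8.78 CPM, lay below the mean input of 9.08 CPM, and without Tpsb2 and Hdc every IgG library lay below every input, at 1.90, 0.843 and 1.23 CPM with IgG, against 2.18, 2.99 and 4.27 CPM in input. With that scaling the cholesterol sum of IgG library 2 in dorsal root, 4784 CPM, lay below every input.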

How the results depend on the processing

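The count of genes called was 0 under TMM and under every alternative run but 3. DESeq2 called 1609, all 18 libraries in 1 fit 156, and leaving out single libraries gave between 0 and 2591. Per transcript, leaving out single libraries gave between 0 and 3463. With the replicate number as a block the count was 0 for genes and transcripts; deviations of equally numbered IgG and input libraries correlated at 0.031, 0.027 and 0.027, which does not pair them, though each IgG library correlated best with its own number. The zinc finger median was 0.85 with library size alone and between 0.39 and 0.68 with single libraries left out. Over single libraries left out, the ribosomal protein median lay between -1.70 and -0.83 and the respiratory chain median between -1.57 and -0.85. The median of nuclear-retained and long noncoding RNAs lay between 0.35 and 0.99. The difference of genes under 1000 nt and those of 2000 nt and over lay between -1.55 and -0.93, and all kept their sign. Of 149 named genes tested, 3 turned sign. Gatm was at 0.14 with library size alone, between -0.32 and 0.10 with single libraries left out, and at 0.022 with a mean input of at least 10 CPM, an alternative chosen after seeing the data. Hdc ran between -0.20, without IgG library 2, and 0.76, and Kif5a between -0.35, without IgG library 3, and 0.91; the cause was not tested. The estimated weight of an IgG library in limma-voom was 0.348, against 2.87 for an input, so the spread of the IgG libraries limits every single-gene statement.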
